A study of Mus musculus with 20 samples.

Results

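The 4 Hox gene clusters of the mouse were described from the ChIP-seq peak lists of 12 libraries of mouse embryonic fibroblasts. Members were all peaks that overlapped 1 of 4 fixed windows of the mm9 genome by at least 1 base: HoxA at chr6:52100000-52215000 (115 kb), HoxB at chr11:96050000-96232000 (182 kb), HoxC at chr15:102745000-102872000 (127 kb) and HoxD at chr2:74495000-74610000 (115 kb). Of 1324083 peaks in the 12 lists, 902 lay in these windows, and 1058 lay in the flanks, which were the adjoining stretches of the same length on each side of each window. The windows hold 38 Hox genes of the member list (10 in HoxA, 10 in HoxB, 9 in HoxC and 9 in HoxD) and make up 0.0204% of the genome.

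Primary fibroblasts were grown from C57BL/6 embryos (E13.5) and used while cycling at passage 4. Wild-type cells (WT) were compared with Rb1L/L cells (RbL), which are homozygous for an allele of Rb1 that alters the cleft of the retinoblastoma protein pRb used by LXCXE-motif proteins. By its title, the study asks how pRb brings the condensin II complex to promoters. For each genotype there were 2 libraries for H3K27me3, 2 for TFIIIC, 1 for CAP-D3 and 1 for CAP-H2, and 8 input samples have no peak list. Cells for H3K27me3, CAP-D3 and CAP-H2 had been fixed with 2 mM EGS, a long-arm protein crosslinker, and then with 1% formaldehyde. TFIIIC chromatin had the 1% formaldehyde step without EGS. Libraries of 1 group are not stated to be separate cultures, so each p-value reflects variation among these particular libraries, possibly technical. How many reads each library had is unknown here, and genotypes rest on the labels, since a peak list does not show the Rb1 allele.

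Hox genes encode homeodomain transcription factors that set position along the body axis. Within a cluster they stand in the order in which they are used, from low-numbered anterior genes to high-numbered posterior genes, and fibroblasts keep a Hox pattern that reflects where in the body they arose. Silent Hox genes are a classic target of Polycomb repressive complexes, which deposit H3K27me3 over broad stretches of chromatin. Condensin II, which contains CAP-D3 and CAP-H2, folds chromosomes, and TFIIIC binds the internal promoters of tRNA genes and other sites that recruit RNA polymerase III.

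All 38 member genes were found in the RefSeq gene table of build GRCm38.p6, which was used only for their names and order and not for positions on mm9. With rising coordinate HoxA ran from Hoxa2 to Hoxa13, HoxB from Hoxb13 to Hoxb1, HoxC from Hoxc13 to Hoxc4 and HoxD from Hoxd13 to Hoxd1. The high-coordinate end of HoxA and the low-coordinate ends of the other clusters are therefore the posterior ends. Peaks were not assigned to single genes.

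Promoters rich in CG dinucleotides are a known feature of Polycomb targets, so the RefSeq promoter table (GRCm38.p6) was read for the members. It held 24 entries for 22 of the 38 genes. In the 250 bases before the start site, the member entries had a median of 12.5 CG dinucleotides, against 6 over all 32841 entries of the same length, whose interquartile range was 2 to 16. The entries shown are those with the most and the fewest CG dinucleotides of each cluster, which for HoxC is a single one. Each sequence is 250 bases, 5′ to 3′ on the strand of the gene, ending at the base before the start site, with CG dinucleotides in capitals.
Hoxa13 (GRCm38.p6 chr6:52260881-52261130, minus strand, 35 CG): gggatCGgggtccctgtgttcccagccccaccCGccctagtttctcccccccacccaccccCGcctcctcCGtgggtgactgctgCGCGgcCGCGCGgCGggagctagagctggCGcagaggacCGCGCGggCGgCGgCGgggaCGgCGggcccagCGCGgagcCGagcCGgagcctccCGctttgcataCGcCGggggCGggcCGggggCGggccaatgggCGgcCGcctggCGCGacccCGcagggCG
Hoxa9 (GRCm38.p6 chr6:52227371-52227620, minus strand, 3 CG): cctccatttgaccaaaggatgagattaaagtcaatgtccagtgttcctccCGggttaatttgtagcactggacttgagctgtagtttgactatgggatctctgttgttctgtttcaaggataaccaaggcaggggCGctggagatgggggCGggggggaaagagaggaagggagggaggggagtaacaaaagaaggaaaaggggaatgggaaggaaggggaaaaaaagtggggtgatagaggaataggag
Hoxb4 (GRCm38.p6 chr11:96318017-96318266, plus strand, 14 CG): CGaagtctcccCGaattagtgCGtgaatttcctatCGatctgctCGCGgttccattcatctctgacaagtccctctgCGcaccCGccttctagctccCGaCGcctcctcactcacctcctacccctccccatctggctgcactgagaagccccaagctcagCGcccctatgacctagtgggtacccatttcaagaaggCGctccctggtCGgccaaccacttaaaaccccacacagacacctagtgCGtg
Hoxb1 (GRCm38.p6 chr11:96365508-96365757, plus strand, 7 CG): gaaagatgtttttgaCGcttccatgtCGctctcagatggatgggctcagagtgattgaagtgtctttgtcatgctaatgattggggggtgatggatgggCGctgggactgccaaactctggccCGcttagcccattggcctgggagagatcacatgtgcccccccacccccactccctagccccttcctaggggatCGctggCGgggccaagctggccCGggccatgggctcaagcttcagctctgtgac
Hoxc4 (GRCm38.p6 chr15:103034145-103034394, plus strand, 8 CG): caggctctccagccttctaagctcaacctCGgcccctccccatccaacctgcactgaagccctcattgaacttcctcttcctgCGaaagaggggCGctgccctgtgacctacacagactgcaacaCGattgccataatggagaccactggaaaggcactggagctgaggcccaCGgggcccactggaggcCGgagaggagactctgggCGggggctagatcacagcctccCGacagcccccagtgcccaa
Hoxd13 (GRCm38.p6 chr2:74667975-74668224, plus strand, 31 CG): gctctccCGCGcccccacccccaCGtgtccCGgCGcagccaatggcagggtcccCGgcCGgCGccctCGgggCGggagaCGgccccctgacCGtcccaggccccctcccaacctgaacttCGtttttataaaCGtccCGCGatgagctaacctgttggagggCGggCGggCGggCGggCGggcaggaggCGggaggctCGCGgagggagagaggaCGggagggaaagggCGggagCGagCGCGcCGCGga
Hoxd11 (GRCm38.p6 chr2:74679308-74679557, plus strand, 2 CG): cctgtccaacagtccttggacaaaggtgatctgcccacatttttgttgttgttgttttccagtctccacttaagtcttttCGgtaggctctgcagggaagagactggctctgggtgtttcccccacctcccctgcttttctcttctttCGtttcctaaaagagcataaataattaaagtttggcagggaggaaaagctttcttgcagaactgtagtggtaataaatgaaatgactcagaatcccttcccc

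Hoxa13 and Hoxd13, the most posterior genes of their clusters, held 35 and 31 CG dinucleotides, more than 97.0% and 94.8% of all promoters. The Hoxa9 and Hoxd11 entries held 3 and 2, and a separate Hoxd11 entry held 20, so the posterior genes were not uniformly rich. These coordinates are on GRCm38.p6 and cannot be set beside the mm9 peak positions.

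**Figure D1:**
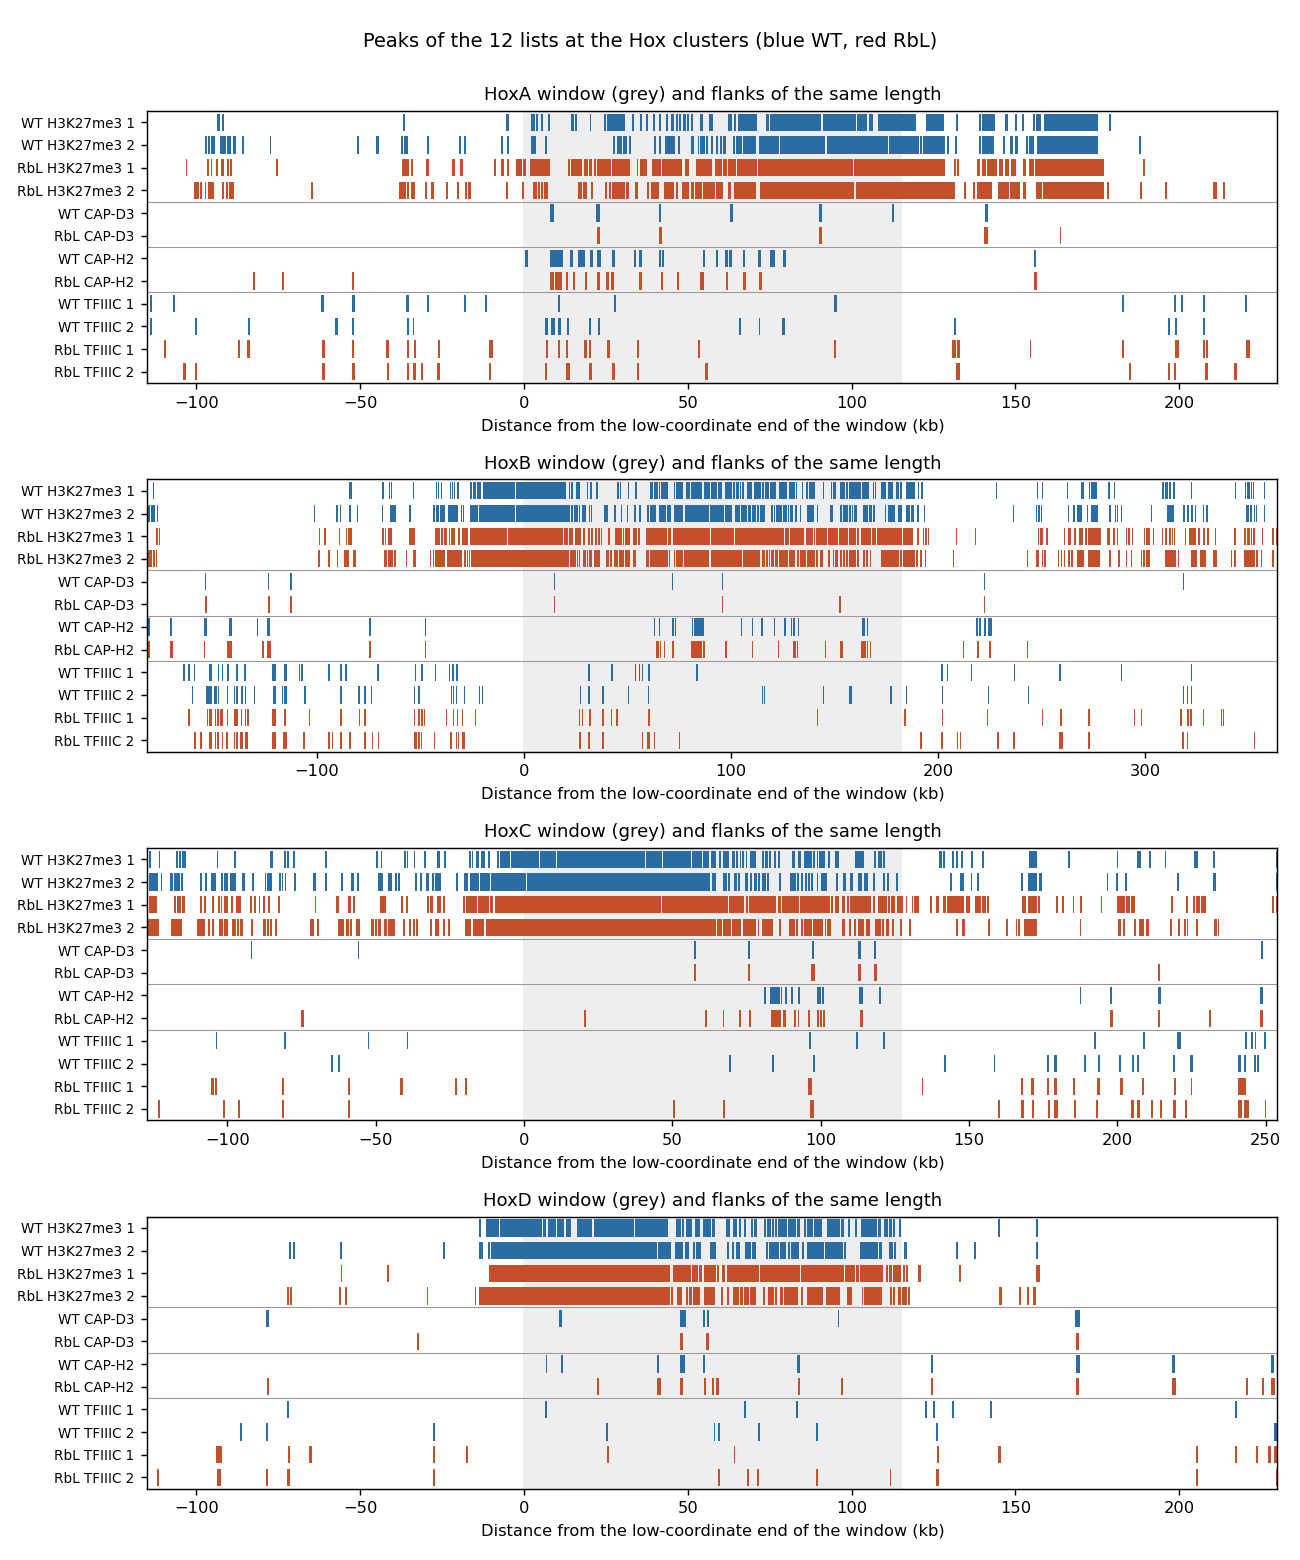
Peaks of the 12 libraries over each Hox window (grey) and its flanks, with distance from the low-coordinate end of the window in kb on the x axis and 1 row per library (blue WT, red RbL). H3K27me3 peaks fill most of each window in all 4 libraries, whereas CAP-D3, CAP-H2 and TFIIIC peaks are short and separate.

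H3K27me3 peaks covered most of each Hox cluster in every library. Over the 4 windows together, 64.0% and 64.9% of bases lay under an H3K27me3 peak in WT libraries 1 and 2, and 88.4% and 75.7% in RbL libraries 1 and 2. The adjoining flanks were covered to 13.7% and 20.1% in WT and to 24.2% and 26.2% in RbL. The genome as a whole was covered to 0.906% and 1.69% in WT and to 1.71% and 2.25% in RbL. The clusters exceeded their flanks in 4 of 4 libraries, by 52.2 ± 8.31 percentage points (SD, n = 4; two-sided exact sign-flip permutation p = 0.125, the smallest that 4 libraries allow; 0.156 after Benjamini-Hochberg adjustment over 10 tests).

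The excess over the flanks was present at each cluster and in each of the 4 libraries. HoxD stood out most sharply from its surroundings, with 71.8 ± 10.4 percentage points (SD, n = 4) between window and flanks. HoxC followed with 52.3 ± 6.63 points, HoxB with 46.1 ± 7.80 points and HoxA with 42.1 ± 10.2 points. Each of these had the same exact p of 0.125. Against the adjoining flanks, the order of the clusters was the same within each of the 4 libraries, and it was not tested. HoxB led HoxA least in RbL library 1, with 57.3 against 56.2 points. The means of neighbours in this order differed by less than the sum of their SDs except HoxD and HoxC. Those SDs describe spread between libraries and leave out that the clusters share libraries. The flanks were not alike: the high-coordinate flank of HoxA was covered to between 31.5% and 46.8%, and the high-coordinate flank of HoxD to between 1.05% and 4.58%. With flanks set off by 100 kb the order changed, and HoxA lay above HoxB and HoxC in each library. HoxA then stood at 56.3, 54.8, 79.6 and 67.4 points in WT 1, WT 2, RbL 1 and RbL 2. HoxC stood at 55.2, 47.3, 67.1 and 54.1 points and HoxB at 51.0, 46.3, 66.0 and 56.1 points. HoxD still led in each library. The map of peaks shows the H3K27me3 domain of HoxA running on past the Hoxa13 end of its window.

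Few windows of the genome were covered as densely. Among 14505 to 22960 genome windows of the same length as a cluster, between 0 and 9 were covered as much as or more than the cluster in the same H3K27me3 library. For HoxA in RbL library 1, HoxB in WT library 1 and RbL library 1, and HoxD in WT library 1 and RbL library 1, the count was 0. These windows were laid end to end along the genome, so a Hox cluster can itself fall within 1 or 2 of them.

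The clusters also held some of the widest H3K27me3 peaks. The widest peak of the whole list in RbL library 1 was the HoxC peak chr15:102735291-102791158 (55.9 kb, rank 1 of 43951), and in RbL library 2 it was the HoxC peak chr15:102734979-102809775 (74.8 kb, rank 1 of 56396). In WT library 2 the HoxC peak chr15:102769165-102805099 spanned 35.9 kb and ranked 4 of 45979, and in WT library 1 the widest HoxC peak, chr15:102759919-102774901, spanned 15.0 kb and ranked 8 of 24741. These HoxC peaks lay at the Hoxc13 side of the cluster.

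At HoxD the widest peak ranked 2 in WT library 2 (chr2:74493506-74535657, 42.2 kb) and 2 in RbL library 2 (chr2:74482607-74538498, 55.9 kb). It ranked 6 in RbL library 1 (chr2:74510551-74539629, 29.1 kb) and 82 in WT library 1 (chr2:74516243-74524482, 8.24 kb), where the same stretch was called as several peaks. HoxB reached rank 3 in RbL library 2 (chr11:96024294-96071590, 47.3 kb), and was at 22.0 kb, rank 16, in WT library 2, at 19.9 kb, rank 36, in RbL library 1 and at 10.3 kb, rank 39, in WT library 1. The widest HoxA peaks ranked between 22 and 86 and spanned 10.8 kb and 12.8 kb in WT and 20.8 kb and 27.2 kb in RbL. Of the Hox peaks, 12 of 214, 11 of 161, 25 of 135 and 13 of 163 were wider than 5 kb in WT 1, WT 2, RbL 1 and RbL 2 (5.61%, 6.83%, 18.5% and 7.98%). Of the full lists, 1.24%, 1.36%, 1.75% and 1.87% were.

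RbL libraries had more of each cluster under H3K27me3 than WT libraries, but their lists also covered more of the genome. HoxA was covered to 57.4% and 56.5% in WT and to 83.4% and 70.9% in RbL. HoxB was covered to 59.3% and 60.5% in WT and to 84.8% and 74.7% in RbL. HoxC was covered to 70.1% in each of the WT libraries and to 92.6% and 80.7% in RbL. HoxD was covered to 71.2% and 74.7% in WT and to 94.4% and 76.5% in RbL. At every cluster both RbL values lay above both WT values, and RbL library 1 was the higher of the RbL pair.

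Over the 4 clusters the means were 64.4 ± 0.681% in WT and 82.0 ± 8.96% in RbL (SD, n = 2 each), a difference of 17.6 percentage points (two-sided exact permutation p = 0.333, the smallest that 2 against 2 libraries allow; 0.667 after adjustment over 10 tests). The difference was 20.2 points at HoxA, 19.9 at HoxB, 16.5 at HoxC and 12.5 at HoxD, each with the same exact p. Without RbL library 1 the difference was 11.3 points over the clusters and 3.57 points at HoxD, where RbL library 2 still lay above both WT libraries. The HoxD groups overlapped at a score of at least 100 (11.4 points) and with equal numbers of top-scoring peaks (26.6 points). All 4 clusters had RbL above WT without overlap, and so did 59.5%, 59.3% and 63.2% of genome windows of 115, 127 and 182 kb with a mean cover of at least 5%. The flanks were also higher in RbL, at 25.2 ± 1.36% against 16.9 ± 4.52% (SD, n = 2 each), a difference of 8.32 points whose groups did not overlap either (exact permutation p = 0.333). The difference between genotypes in cluster minus flanks was 9.28 points, and its groups overlapped (exact permutation p = 0.667).

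The sign of the difference turned when each library was scaled to its own genome cover. Cluster cover was 70.6 and 38.3 times the genome cover in the WT libraries and 51.7 and 33.7 times in the RbL libraries, a difference of −11.7, and the groups overlapped (exact permutation p = 0.667). A window cannot be covered beyond its full length, so the highest possible ratio falls as genome cover rises. Even full cover of every window in both RbL libraries would have left their mean ratio below that of WT. The sign of this scaled difference therefore cannot show a direction between genotypes. WT library 1 had the smallest genome cover, and WT library 2 and RbL library 1 had almost the same, at 1.69% and 1.71%. Between these last 2 lists, which differ in genotype, Hox cover was 64.9% and 88.4%. RbL library 2, with the largest genome cover, had less of the clusters covered than RbL library 1. The part of read depth in these differences was not tested.

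**Figure D2:**
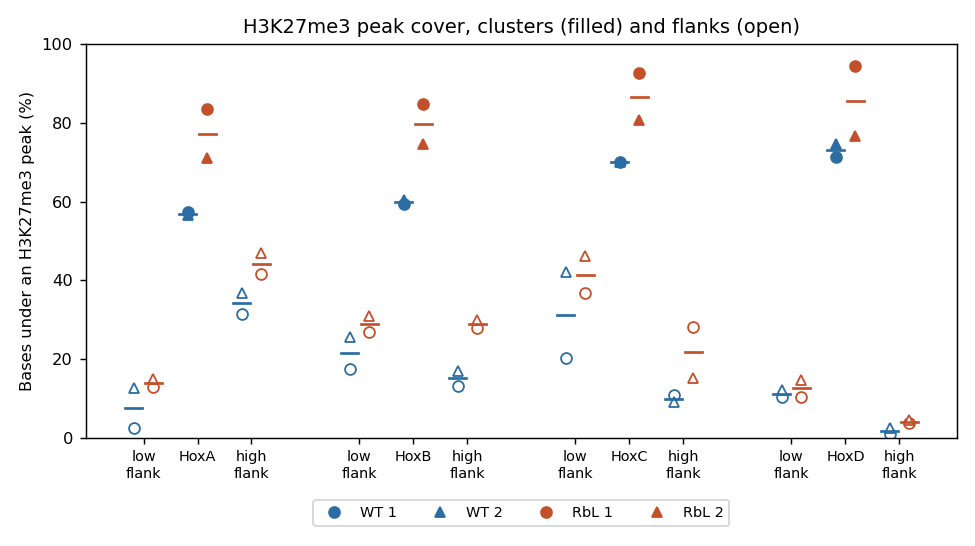
Percent of bases under an H3K27me3 peak (y axis) in each Hox window (filled) and in its low- and high-coordinate flanks (open), for WT (blue) and RbL (red) libraries 1 (circle) and 2 (triangle); bars are means of 2 libraries. Both RbL points lie above both WT points at each window, from 56.5% to 74.7% in WT and from 70.9% to 94.4% in RbL, and in every flank the RbL mean lies above the WT mean.

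Bases were next sorted by the libraries that covered them. In the 4 clusters, 47.5% of bases were under a peak in all 4 H3K27me3 libraries and 5.77% in none. In the flanks these shares were 8.70% and 61.6%, and over the genome 0.445% and 96.3%. Bases under a peak in both RbL libraries and in neither WT library made up 6.63% of the clusters, 3.42% of the flanks and 0.232% of the genome. The reverse, both WT and neither RbL, made up 0.203% of the clusters, 0.398% of the flanks and 0.0329% of the genome. For comparison, bases covered in 1 library of each genotype and missing in the others made up 0.577% to 3.62% of the clusters, depending on the pair.

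When peaks of the 4 libraries were merged where they overlapped, the clusters held 82 H3K27me3 regions. All 4 libraries had a peak in 42 of them (51.2%), against 8.39% of the 89389 regions of the genome. Regions found in both RbL libraries and in no WT library numbered 7 (8.54%), against a genome background of 5.18%. Regions found in both WT libraries and in no RbL library numbered 0, against a background of 0.736%. The 7 RbL regions were narrow, between 0.759 kb and 1.80 kb. Those with the highest lowest score were HoxA chr6:52118103-52119483 (authors' peak scores 489 and 346), HoxC chr15:102868636-102869920 (558 and 186) and HoxA chr6:52133962-52134914 (193 and 170).

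Peak scores here are the authors' own, given per peak, and serve only to rank or describe peaks within a list. They started at 50, and many peaks were tied at 3100. For a merged region, the score in a library is that of its highest-scoring peak there. The H3K27me3 region with the highest lowest score over 4 libraries was chr6:52171272-52232922 at HoxA (61.7 kb; at least 3100 in each), which crosses the Hoxa13 end of the window. At HoxB it was chr11:96122062-96139801 (17.7 kb; lowest score 3020), at HoxD chr2:74579465-74597130 (17.7 kb; 2273) and at HoxC chr15:102724296-102811777 (87.5 kb; 1285). The HoxC value came from RbL library 2, whose peaks in the window scored at most 1266, so its peak lay outside the window. The 74.8 kb peak of that library within the region scored 342.

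In 10 kb bins, 54 Hox bins were tested together with all other bins of the genome. H3K27me3 cover was scaled to each library's total and compared with limma. Of 18057 bins, 9 passed an adjusted p of 0.05 (0.0498%), and 0 of the 54 Hox bins did; 2 Hox bins and 646 bins of the genome had an unadjusted p under 0.05. In covered bases before scaling, both RbL libraries lay above both WT libraries in 32 of 54 Hox bins (59.3%), against 40.9% of bins genome-wide, and below in 0 (background 1.95%). After scaling, they lay above in 3 (background 18.8%) and below in 13 (background 15.3%). In each of these 13 bins both RbL libraries had at least 9499 of 10000 bases covered. Such bins cannot rise further, and scaling to the larger RbL totals lowers them, so this count does not show a loss. The median log2 difference of the Hox bins was −0.38 after scaling, where that of all bins was 0.08, and 0.28 without scaling, where that of all bins was 0.74.

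The bins with the smallest p were chr6:52110001-52120000 in HoxA and chr11:96090001-96100000 in HoxB. In the HoxA bin 1382 and 0 bases were covered in WT and 5240 and 2118 in RbL (scaled log2 difference 2.50 ± 0.96, SE; limma adjusted p = 0.915). In the HoxB bin 1767 and 2222 bases were covered in WT and 6217 and 7468 in RbL (1.07 ± 0.43, SE; limma adjusted p = 0.915). Both were among the sparsely covered bins of their clusters, whereas the Hoxa13-side bin chr6:52180001-52190000 had 9810 and 9937 of 10000 bases covered in WT and 10000 in each RbL library. A bin holds at most 10000 covered bases, and the scaled log2 difference of that nearly full bin was −0.64 ± 0.46 (SE). Without WT library 2, 15 Hox bins were called, all lower in RbL, and of the 1739 bins called genome-wide 1349 were higher and 390 lower. Conversely, without WT library 1, 1 Hox bin was called, higher in RbL, as were 44 of the 47 called genome-wide. In data simulated with a residual SD of 1.05 for every bin, 0% of bins changed 4-fold and 4.5% of those changed 8-fold were recovered. In the Hox bins the SE, which equals the residual SD with 2 libraries per genotype, lay between 0.42 and 0.96. Nearly full bins also could not rise, so these rates do not describe the Hox bins. Bins that were not called may still have changed.

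H3K27me3 was unevenly spread along the clusters. Each window was divided into 3 parts of equal length, called low, middle and high by coordinate. The part at the posterior end was nearly filled at HoxA, HoxC and HoxD. The high part of HoxA, at the Hoxa13 end, was covered to 90.8% and 97.0% in WT and to 99.5% and 98.7% in RbL. Its low part, at the Hoxa2 end, was covered to 33.8% and 15.9% in WT and to 67.5% and 36.8% in RbL. The order low, middle, high was the same in all 4 libraries.

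HoxC and HoxD ran the other way along the chromosome, as do their genes. The low part of HoxC, at the Hoxc13 end, was covered to between 97.0% and 100% in the 4 libraries. Its high part, at the Hoxc4 end, was covered to 38.3% and 39.8% in WT and to 82.8% and 52.2% in RbL. The low part of HoxD, at the Hoxd13 end, was covered to 87.9% and 100% in WT and to 99.8% and 100% in RbL. Its middle part was covered to 56.8% and 55.5% in WT and to 90.1% and 64.3% in RbL, and its high part, at the Hoxd1 end, to 69.0%, 68.6%, 93.5% and 65.4% in WT 1, WT 2, RbL 1 and RbL 2.

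HoxB did not show this order. Its middle part was the most covered in all 4 libraries, with WT values of 73.2% and 78.5% and RbL values of 94.5% and 88.0%. The low part, which includes the Hoxb13 end, was covered to 48.4% and 56.5% in WT and to 71.4% and 70.5% in RbL. The high part, at the Hoxb1 end, was covered to 56.2% and 46.4% in WT and to 88.4% and 65.5% in RbL. The peak map shows a filled block at the low-coordinate edge of the HoxB window followed by a sparse stretch. In that block, the bins chr11:96050001-96060000 and chr11:96060001-96070000 had at least 9851 of 10000 bases covered in each library. The edge of HoxB at the Hoxb13 end was thus nearly filled too, over a shorter length than its low part.

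The positions of these blocks were shared by the libraries. The longest stretch covered in all 4 libraries was chr15:102774946-102785849 in HoxC (10.9 kb), chr6:52178830-52189055 in HoxA (10.2 kb), chr11:96060206-96069012 in HoxB (8.81 kb) and chr2:74516243-74524482 in HoxD (8.24 kb). The longest stretch with no H3K27me3 peak in any library was chr6:52108050-52113543 in HoxA (5.49 kb), in its low part. It was 2.14 kb long in HoxB (chr11:96106748-96108883), 0.795 kb in HoxC (chr15:102849140-102849934) and 0.718 kb in HoxD (chr2:74554427-74555144).

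**Figure D3:**
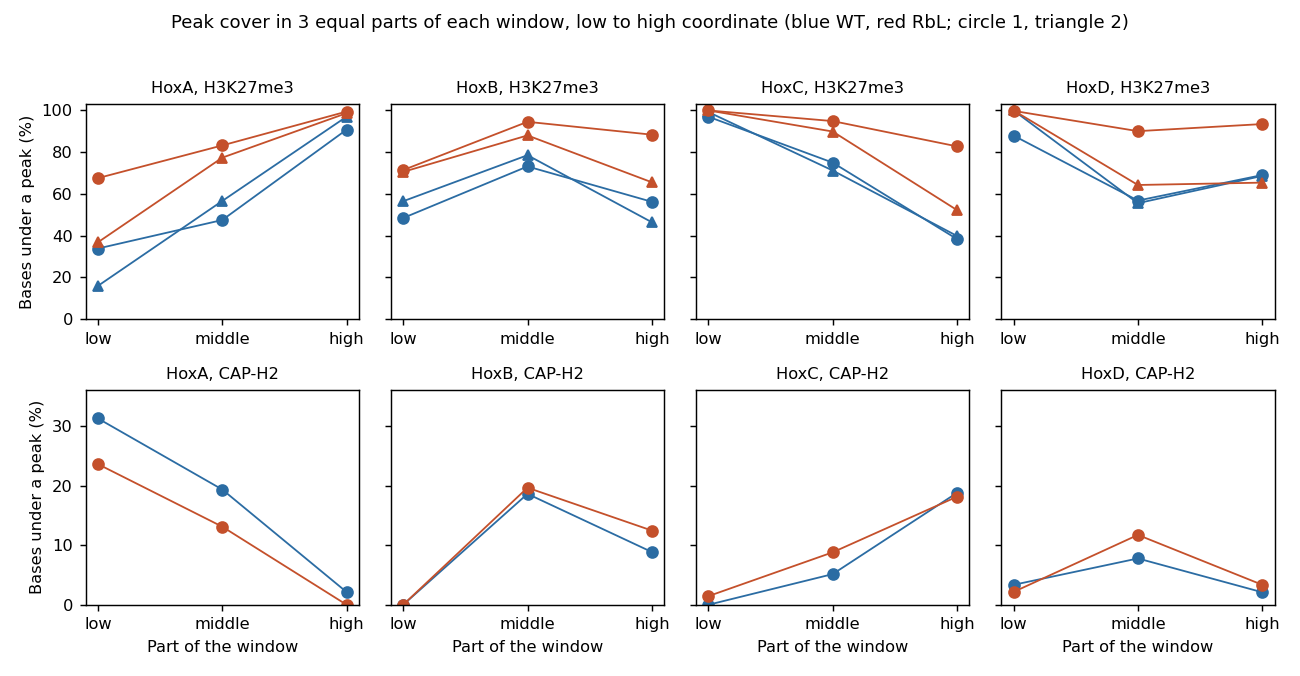
Percent of bases under a peak (y axis) in the low, middle and high part of each window by coordinate, for H3K27me3 (top row, 4 libraries) and CAP-H2 (bottom row, 2 libraries; the y axis runs to a lower maximum), WT in blue and RbL in red. H3K27me3 cover is highest at the Hoxa13, Hoxc13 and Hoxd13 ends, and CAP-H2 cover at HoxA and HoxC is highest at the opposite end. At HoxD it is highest in the middle part, where H3K27me3 cover is lowest.

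CAP-H2, a kleisin-type subunit of condensin II, had many peaks in the clusters, and at HoxA, HoxC and HoxD they were densest in the part of the window with the least H3K27me3. The WT list had 55 peaks in the 4 windows and the RbL list also 55, of which 32 and 45 had a score of at least 100. They covered 9.66% of the windows in WT and 9.68% in RbL, against 1.88% and 2.45% of the flanks and 1.72% and 1.69% of the genome. Flanks set off by 100 kb were covered to 4.03% and 4.34%. At HoxC such flanks were covered to 7.51% and 8.36%, close to the 7.98% and 9.46% of that window. Each condensin II subunit had a single library in WT and a single one in RbL, so there was no replicate check and no test, and the exact intervals given here cover counting error only.

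HoxA had the highest CAP-H2 cover, 17.6% in WT (22 peaks) and 12.2% in RbL (15 peaks). HoxB was covered to 9.15% (17 peaks) and 10.7% (18 peaks), HoxC to 7.98% (10 peaks) and 9.46% (14 peaks), and HoxD to 4.41% (6 peaks) and 5.74% (8 peaks). HoxA had fewer CAP-H2 peaks in RbL than in WT, and the other clusters had more. Of genome windows of the same length, 0.588% in WT and 1.49% in RbL were covered as much as or more than HoxA, and 10.8% and 6.93% as much as or more than HoxD.

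Along HoxA, CAP-H2 covered 31.3%, 19.3% and 2.13% of the low, middle and high parts in WT and 23.6%, 13.1% and 0% in RbL. Along HoxC it covered 0%, 5.15% and 18.8% in WT and 1.45%, 8.81% and 18.1% in RbL. At HoxD the middle part led, with 7.78% and 11.7%. In these 3 clusters CAP-H2 cover was thus greatest in the part with the least H3K27me3, in each genotype. At HoxB the low part had no CAP-H2 peak in either genotype, and the middle part, with the most H3K27me3, also had the most CAP-H2, 18.6% in WT and 19.6% in RbL.

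Over 10 kb bins, CAP-H2 cover and mean H3K27me3 cover of the same genotype had a Spearman rho of −0.70 at HoxA in WT and −0.76 in RbL (11 bins). At HoxC rho was −0.71 and −0.63 (13 bins), at HoxB 0.31 and 0.07 (18 bins), and at HoxD −0.19 and −0.47 (12 bins). Neighbouring bins share peaks and the bins of a cluster share their libraries, so these values are descriptions only.

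The strongest CAP-H2 peaks were called in both genotypes. At HoxB a peak with a score of 3100, at which many peaks are tied, lay at chr11:96131983-96136261 in WT and chr11:96130890-96136150 in RbL, and ranked 23 by score in each list. It lay almost wholly under H3K27me3, with 86.7% and 96.5% of the WT peak covered in the WT libraries and 100% and 98.7% in the RbL libraries. At HoxC the leading peak was chr15:102828070-102831210 in WT (score 1534) and chr15:102828413-102831632 in RbL (2211). Of the WT peak, 37.8% and 10.4% lay under H3K27me3 in WT and 83.3% and 37.0% in RbL.

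At HoxA the leading peak was chr6:52109388-52111841 in WT (score 1052) and chr6:52109516-52111681 in RbL (826). None of its bases were under an H3K27me3 peak in any of the 4 libraries, and it lay inside the longest H3K27me3-free stretch of the cluster. TFIIIC peaks of 3 libraries overlapped it, both WT libraries and RbL library 1. The neighbouring HoxA peak, chr6:52107811-52109352 in WT (556) and chr6:52107822-52109288 in RbL (599), ranked next by score. The third was chr6:52134943-52136041 in WT (393) and, in RbL, chr6:52122383-52123308 (396), which coincided with the leading CAP-D3 site of the cluster.

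The next peaks by score at HoxB and HoxC also had a peak of the other genotype within 1 kb. The next CAP-H2 peaks of HoxB were chr11:96213328-96214849 (329) and chr11:96121278-96122408 (286) in WT, and chr11:96212974-96214990 (584) and chr11:96121421-96122422 (548) in RbL. At HoxC they were chr15:102843725-102845283 (402) and chr15:102858083-102859145 (333) in WT, and chr15:102832251-102833291 (358) and chr15:102858130-102859119 (330) in RbL. The leading CAP-H2 peak of HoxD had the lowest score of the 4 leading peaks, at chr2:74542464-74544146 (267) in WT and chr2:74542527-74543653 (364) in RbL. Next at HoxD were chr2:74535670-74536334 (145) and chr2:74506235-74506937 (95.1) in WT, and chr2:74535536-74536690 (335) and chr2:74517176-74518001 (232) in RbL. The last named of each genotype had no peak of the other genotype within 1 kb.

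CAP-H2 peaks without a peak of the other genotype within 1 kb were about as frequent as in the whole lists. They made up 14 of 55 in WT (25.5%, 95% Clopper-Pearson interval 14.7 to 39.0; 24% of the whole list) and 17 of 55 in RbL (30.9%, 19.1 to 44.8; 23.6% of the whole list). When overlapping CAP-H2 peaks were merged instead, 31 of 74 Hox regions (41.9%) had a peak in both genotypes, against 53.9% of regions genome-wide. Regions with a WT peak alone made up 28.4% (background 22.9%), and those with an RbL peak alone 29.7% (background 23.2%). The highest-scoring merged region with a WT peak alone was chr11:96164498-96165473 in HoxB (273), and the highest with an RbL peak alone was chr11:96147002-96148095 in HoxB (381).

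Most CAP-H2 peaks in the clusters were overlapped by H3K27me3, as were most bases of the windows themselves. Of the 55 WT peaks, 40, 38, 53 and 45 were overlapped by a peak of H3K27me3 WT 1, WT 2, RbL 1 and RbL 2 (72.7%, 69.1%, 96.4% and 81.8%), where the shares of the whole list were 1.09%, 1.79%, 2.35% and 1.78%. Counted by base, however, 53.4% and 49.4% of the WT CAP-H2 peak bases lay under H3K27me3 in the WT libraries, below the 64.0% and 64.9% of all window bases. The clusters differed in this. At HoxA these shares were 30.7% and 27.8%, against 57.4% and 56.5% of the window. Within HoxA, most WT CAP-H2 bases thus lay outside the H3K27me3 peaks of the WT libraries. The RbL CAP-H2 peaks had 64.4% and 30.0% of their HoxA bases under H3K27me3 in the RbL libraries, against 83.4% and 70.9% of the window. HoxB went the other way, with 70.0% and 74.6% of WT CAP-H2 bases under WT H3K27me3 against 59.3% and 60.5% of the window, and 96.1% and 76.0% in RbL against 84.8% and 74.7%. At HoxC the WT shares were 59.9% and 42.2%, below the window's 70.1% in each library. At HoxD they were 76.7% and 67.5%, above the window's 71.2% in library 1 and below its 74.7% in library 2.

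CAP-D3, a HEAT-repeat subunit of condensin II, had fewer peaks, 21 in WT and 13 in RbL. They covered 2.70% and 2.00% of the windows, against 0.799% and 0.723% of the flanks and 0.515% and 0.460% of the genome. At HoxB the cover was close to that of its flanks, with 0.931% against 1.034% in WT and 1.17% against 1.11% in RbL. HoxA had 4.50% against 0.417% and 2.301% against 0.683%, HoxC 2.82% against 0.658% and 3.29% against 0.277%, and HoxD 3.57% against 0.964% and 1.61% against 0.645%. Flanks set off by 100 kb were covered in WT and RbL to 2.22% and 1.72% at HoxC, closer to that window. Such flanks were covered to 0.706% and 0.249% at HoxA, 1.24% and 1.21% at HoxB, and 0% in each genotype at HoxD. By cluster the WT and RbL lists had 7 and 3 peaks in HoxA, 3 and 3 in HoxB, 5 and 5 in HoxC, and 6 and 2 in HoxD. The RbL list as a whole was also the shorter one, with 13233 peaks against 17576.

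The leading CAP-D3 sites were in both genotypes. At HoxA a peak with a score of 3100, again a tied value, lay at chr6:52122058-52123272 in WT and chr6:52122218-52123221 in RbL, and a CAP-H2 peak overlapped it in each genotype. It was free of H3K27me3 in both WT libraries and in RbL library 2, and 92.8% of the WT peak was covered in RbL library 1. The other HoxA sites of both genotypes were chr6:52190100-52190966 (642 in WT; 339 in RbL) and chr6:52141348-52141937 (296; 561).

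All 5 CAP-D3 sites of HoxC were called in both genotypes. The highest was chr15:102857636-102858598, with a score of 2392 in WT and 3100 in RbL, which was also a CAP-H2 site in WT and in RbL and lay under H3K27me3 to 81.4% and 100% in the WT libraries. The others were chr15:102862906-102863552 (2207 in WT; 1780 in RbL), chr15:102842118-102842850 (1375; 2129), chr15:102820537-102821170 (799; 675) and chr15:102802289-102802888 (534; 1217). The first 3 of these 5 lay in the high part of the window, toward Hoxc4.

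At HoxD the strongest site, chr2:74542567-74543575 (1437 in WT; 2727 in RbL), coincided with the leading WT CAP-H2 peak of that cluster. A second HoxD site, called as 2 peaks in WT at chr2:74549712-74550243 (202) and chr2:74550907-74551445 (188), had a single RbL peak at chr2:74550621-74551451 (564). A further WT peak, chr2:74543636-74544357 (349), lay within 1 kb of the strongest site. At HoxB the sites of both genotypes were chr11:96064392-96064967 (526; 436) and chr11:96145521-96146191 (420; 946).

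CAP-D3 peaks with no peak of the other genotype within 1 kb numbered 7 of 21 in WT and 1 of 13 in RbL. The WT share was 33.3% (95% Clopper-Pearson interval 14.6 to 57.0), where the whole list had 43.9%, and the RbL share was 7.69% (0.195 to 36.0), where the whole list had 27.4%. The WT peaks were chr2:74505748-74506606 (625) and chr2:74590753-74591201 (352) in HoxD, chr11:96121635-96122082 (283) in HoxB, and chr6:52162987-52163813 (358), chr6:52212323-52212854 (252), chr6:52107817-52108478 (235) and chr6:52108600-52109083 (177) in HoxA. The RbL peak was chr11:96202394-96203029 (442) in HoxB, which a CAP-H2 peak of RbL, called in that genotype alone, overlapped. The highest score among the 7 WT peaks, 625, was below those of the leading shared sites of HoxA, HoxC and HoxD and above that of HoxB.

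CAP-D3 peaks with a CAP-H2 peak of the same genotype numbered 11 of 21 in WT (52.4%, 95% Clopper-Pearson interval 29.8 to 74.3; 55.2% of the whole list) and 6 of 13 in RbL (46.2%, 19.2 to 74.9; 65.4% of the whole list). Seen from CAP-H2, 9 of 55 WT peaks (16.4%, 7.77 to 28.8; 21.7% of the whole list) and 6 of 55 RbL peaks (10.9%, 4.11 to 22.2; 19.8% of the whole list) had a CAP-D3 peak. The whole-list shares lay inside the intervals. Of the WT CAP-D3 peaks, 17, 13, 20 and 15 of 21 were overlapped by H3K27me3 in WT 1, WT 2, RbL 1 and RbL 2, and 4.36%, 6.08%, 7.23% and 6.37% of the whole list were. Counted by base, 55.0% and 53.4% of the WT CAP-D3 peak bases lay under H3K27me3 in the WT libraries, below the 64.0% and 64.9% of window bases. Per the labels, both WT condensin II libraries shared an input with H3K27me3 WT library 2, and both RbL ones with H3K27me3 RbL library 1.

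TFIIIC was sparse in the Hox clusters, with 16 and 27 peaks in the WT libraries and 20 and 22 in the RbL libraries. They covered 2.10% and 3.24% of the windows in WT and 2.67% and 2.80% in RbL. The flanks were covered to 4.03% and 4.38% in WT and to 6.70% and 6.46% in RbL, and the genome to 5.65% and 7.30% in WT and to 10.2% and 10.4% in RbL. The clusters lay below their flanks in 4 of 4 libraries, by a mean of −2.69 ± 1.38 percentage points (SD, n = 4; two-sided exact sign-flip permutation p = 0.125, the smallest possible; 0.156 adjusted over 10 tests).

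Against the adjoining flanks, the shortfall was below 0 in every library at HoxB and HoxC alone. At HoxB the difference was −4.79 ± 1.64 points and at HoxC −3.63 ± 1.79 points (SD, n = 4), each below 0 in all 4 libraries (exact permutation p = 0.125). At HoxA it was −0.43 ± 2.01 points and at HoxD −0.61 ± 1.73 points, with libraries on both sides of 0 (exact permutation p = 0.75 for each). With flanks set off by 100 kb the difference was −5.55 points over the 4 clusters, and HoxD, at −2.45 points, had the same exact permutation p of 0.125 as HoxB and HoxC. HoxA then stood at −1.46 points (exact permutation p = 0.25). Much of the HoxB flank value came from the low-coordinate flank, which was covered to between 10.7% and 14.3%. Between 43.4% and 93.4% of genome windows of the same length were covered as much as or more than a given cluster.

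**Figure D4:**
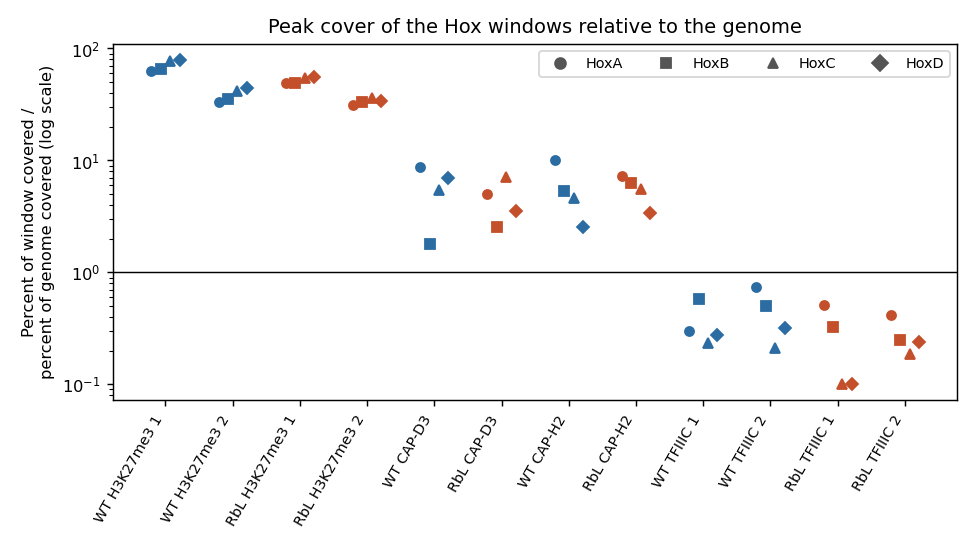
Percent of each Hox window under a peak divided by the percent of the genome under a peak in the same library (y axis, log scale), for the 12 libraries (blue WT, red RbL) and 4 clusters (symbols). H3K27me3 values lie between 31.6 and 78.6, condensin II values between 1.81 and 10.2, and TFIIIC values between 0.100 and 0.736, below the line at 1.

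Between genotypes, TFIIIC cover of the clusters differed by 0.07 percentage points (2.67 ± 0.807% in WT, 2.74 ± 0.0942% in RbL, SD, n = 2 each), and the groups overlapped (two-sided exact permutation p = 1). In the flanks both RbL libraries lay above both WT libraries, by 2.37 points (exact permutation p = 0.333, the smallest possible). Relative to genome cover, the clusters stood at 0.41 ± 0.05 in WT and at 0.27 ± 0.004 in RbL (SD, n = 2 each), a difference of −0.14 without overlap (exact permutation p = 0.333). Cluster minus flanks was −1.54 ± 0.565 points in WT and −3.84 ± 0.270 in RbL (SD, n = 2 each), also without overlap (exact permutation p = 0.333). The share of genome windows that separate in this way was not counted for TFIIIC, so these separations are not shown to be particular to the clusters. The median genome window of 115 kb was covered to 3.73% and 4.53% in WT and to 6.19% and 6.26% in RbL. Relative to genome cover, this median was also lower in both RbL libraries than in both WT libraries. Without WT library 1 the difference in cluster cover was −0.50 points, and with equal numbers of top-scoring peaks it was −1.05.

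TFIIIC peaks of different libraries seldom fell at the same place in the clusters. Merged over the 4 libraries they gave 54 regions, of which 3 (5.56%) had a peak in every library, against 17.8% of the 435645 regions of the genome. The regions in all 4 libraries were chr11:96109605-96110870 in HoxB (scores 323 and 292 in WT, 334 and 827 in RbL), chr11:96080971-96082202 in HoxB (317, 185, 295 and 157) and chr15:102840893-102843105 in HoxC (129, 236, 308 and 196). The HoxC region is a chain of overlapping peaks: its WT peaks, chr15:102841172-102841715 and chr15:102842543-102843105, did not overlap, and 0% of HoxC bases were under TFIIIC in all 4 libraries. The HoxC region overlapped the CAP-D3 site chr15:102842118-102842850, which came from chromatin fixed with EGS as well. HoxA had a region in 3 libraries at chr6:52119762-52120858 (190 in WT library 2, 176 and 433 in RbL), and HoxD at most had regions in 2 libraries.

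A TFIIIC region in both RbL libraries and in no WT library was found once (1.85%, against a genome background of 9.42%), at chr6:52134370-52135135 in HoxA (125.1 and 228). It overlapped the H3K27me3 region chr6:52133962-52134914, which was also called in the RbL libraries alone. Regions in both WT libraries alone numbered 0 (background 1.62%). At HoxA the low part had more TFIIIC cover than the high part in each library, with 3.24% and 11.3% in WT and 12.04% and 11.1% in RbL, against 1.81%, 2.09%, 1.89% and 0% in the high part. The longest stretches with no TFIIIC peak in any library were 50.4 kb in HoxC (chr15:102745000-102795359, the Hoxc13 end), 31.9 kb in HoxD (chr2:74521016-74552904), 30.5 kb in HoxB (chr11:96134276-96164810) and 19.6 kb in HoxA (chr6:52195437-52215000, the Hoxa13 end).

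Of the 54 Hox bins of 10 kb, 11 had enough TFIIIC cover to be tested. limma called 0 of 122667 bins of the genome (0%) and 0 of the 11; 6426 and 0 had an unadjusted p under 0.05. Both RbL libraries lay above both WT libraries in covered bases in 4 of the 11 bins (36.4%; background 50.3%) and below in 0 (background 3.47%). After scaling they lay above in 1 (background 16%) and below in 2 (background 25.6%). In data simulated with a residual SD of 0.557 for every bin, 16.5% of bins changed 4-fold and 92% of those changed 8-fold were recovered. The SE of the 11 Hox bins ran from 0.39 to 2.25, so these rates do not describe them, and bins that were not called may have changed.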

How the data were processed

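The 12 deposited lists give, per library, peak positions and the authors' score for each peak (higher is stronger), with no column names. Bowtie2 2.3.0, MACS 1.4.0rc2 and the mm9 build are named per the submitters' processing notes, without settings or order. Peaks were called per library, since each deposited list belongs to 1 library. The smallest score in a list was between 50 and 50.4. Input samples were not analysed here.

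Coordinates are 1-based, and covered bases were counted within each window and its flanks. The genome was taken as 21 placed chromosomes (2642 Mb), each ending at the last peak end of any list. Library means were compared with two-sided exact permutation tests, and clusters with flanks by sign flips over libraries. For H3K27me3 and TFIIIC, 10 kb bins with a mean of at least 500 covered bases were compared on log2(covered bases + 100), scaled to library totals, with limma 3.58.1 (R 4.3.3, trend, Benjamini-Hochberg over all bins, threshold 0.05), tested on simulated data with 200 changed bins. Tables and figures used Python 3.11.15, numpy 2.4.6, pandas 2.3.3, scipy 1.17.1 and matplotlib 3.10.9.

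Members, windows and lists were chosen with earlier results of these data known. Regions named are the widest H3K27me3 peak per cluster and library; per cluster and antibody, the merged region in most libraries with the highest lowest score; up to 3 regions per direction found in every library of 1 genotype alone; all CAP-D3 peaks; the 3 highest CAP-H2 peaks per cluster and genotype; and the longest H3K27me3-free stretches. Other named regions (TFIIIC regions in all libraries, bins with an unadjusted p under 0.05, longest filled or TFIIIC-free stretches) were chosen after their values were seen. Alternatives were a score of at least 100, cover divided by genome cover, equal numbers of top-scoring peaks, flanks set off by 100 kb, 5 kb bins (at least 250 bases), a pseudocount of 500 bases, no filter, no scaling, peak midpoints, leaving out each library and a replicate block.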

Additional observations from a re-analysis of the deposited data

How the results depend on the processing

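The signs of differences between genotypes depended on scaling. Divided by genome cover, the H3K27me3 difference (RbL minus WT) reversed to −11.7 over the 4 clusters and to −8.12, −9.10, −14.3 and −16.7 at HoxA, HoxB, HoxC and HoxD. Over the 4 clusters and at HoxC and HoxD, full cover of the windows in both RbL libraries would still have given a negative difference. Those signs therefore cannot show a direction. For TFIIIC the small difference over the 4 clusters became −0.14 divided by genome cover and −1.05 with equal numbers of top-scoring peaks, and without 1 library it ranged from −0.50 to 0.64. At HoxA the TFIIIC difference of 1.22 points became −0.055 divided by genome cover and −0.567 with equal numbers of peaks, and without 1 library it ranged from −0.621 to 3.07. HoxA minus flanks then ranged from −1.41 to 0.080. At HoxC the difference of 0.06 became −0.17 at a score of at least 100, −0.078 divided by genome cover, −0.92 with equal numbers of peaks, −0.06 without WT library 1 and −0.41 without RbL library 2. At HoxD the difference of −0.19 became 0.20 without WT library 2 and 0.53 without RbL library 1, and HoxD minus flanks ranged from −1.08 to 0.229 without 1 library. The cause was not tested.

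At a score of at least 100, 32 of the 55 WT and 45 of the 55 RbL CAP-H2 peaks remained. limma called 0 H3K27me3 bins without scaling; without 1 library it called 5 to 1739 bins, of which 0 to 15 were in the clusters, and 0 to 3 TFIIIC bins. With 1 library left in a group, that library is assumed to vary like the others.

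Libraries share replicate numbers in the labels, but nothing says that the numbers pair them, and deviations of same-numbered libraries had a correlation of 0.09 for H3K27me3 and 0.04 for TFIIIC over bins. With the number as a replicate block, limma called 11 H3K27me3 bins in place of 9, 0 in the clusters, and 0 TFIIIC bins, and the cover differences stayed at 17.6 and 0.07 points.

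Of the remaining alternatives, 68 for the main comparisons and 96 for single clusters kept their direction and their side of the threshold or stayed within 1.5 times the count. Read depth per list is unknown, which limits every comparison of cover between libraries.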
